A study of Homo sapiens with 6 samples.

Results

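NF-kB subunits and feedback inhibitors form a set of 10 named genes. It holds the subunit genes NFKB1, NFKB2, RELA, RELB and REL, the inhibitor genes NFKBIA, NFKBIE and NFKBIZ, and the feedback genes TNFAIP3 and BIRC3. A probe set, the group of oligonucleotides by which an Affymetrix array reads a transcript, counted as belonging to a gene where that gene was its only symbol in the platform annotation. In this way 9 of the 10 genes were read by 19 probe sets, out of 19775 gene symbols and 41091 single-symbol probe sets in all. The signal of BIRC3 was not analysed here.

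Cultures of 76N cells, which are normal human mammary epithelial cells kept as a line in DFCI-1 medium, were transfected with a control siRNA (n = 3 arrays, 1 per culture) or with Ecd siRNA (n = 3 arrays), and total RNA was hybridised to 1-colour arrays. Ecd is the protein encoded by ECD, named after ecdysoneless, its Drosophila homologue. The comparison asks which transcripts differ between the 2 siRNA treatments. The labels name no stimulus of the pathway, which does not show that the pathway was at rest. The sources used here give neither the sequences or dose of the siRNA nor the time to harvest.

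NF-kB is a family of dimeric transcription factors. In a resting cell IkB proteins hold the dimers in the cytoplasm. Signals from cytokine and pattern-recognition receptors activate the IKK kinases, the IkB protein is phosphorylated and degraded, and the dimer enters the nucleus. Several of the genes it then switches on encode its own inhibitors and subunits, so their transcripts are widely used as readouts of the pathway. In mammary epithelial cells the pathway is known for its part in survival, inflammatory cytokine production and growth of the gland.

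The short DNA element that NF-kB dimers recognise is the kappa B site, and the feedback loop runs through such elements. Stretches from the promoters of 4 measured members are shown, the same 4 whose control and Ecd siRNA arrays did not overlap. NFKB2 and NFKBIZ, whose arrays overlapped, also held matches and are not shown. The stretches are from RefSeq (GRCh38.p14), read 5' to 3' on the strand of the gene, and lie upstream of an annotated transcription start. Capitals mark matches to the kappa B consensus on either strand. The positions are chr4:102501285-102501344 (plus strand) for NFKB1, chr2:60881503-60881561 (plus strand) for REL, chr14:35404796-35404855 (minus strand) for NFKBIA and chr6:137867188-137867217 (plus strand) for TNFAIP3.
NFKB1: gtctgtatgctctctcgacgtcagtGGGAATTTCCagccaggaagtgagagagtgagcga
REL: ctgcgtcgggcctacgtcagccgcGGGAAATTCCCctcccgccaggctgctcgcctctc
NFKBIA: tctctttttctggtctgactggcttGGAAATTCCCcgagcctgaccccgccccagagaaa
TNFAIP3: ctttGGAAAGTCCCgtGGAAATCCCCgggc
The NFKB1 match, GGGAATTTCC, covers bases -49 to -40 counted from the start. The same letters occur on the opposite strand in NFKBIA at -81 to -72, and in REL at -46 to -37, where they overlap a second match on the plus strand. TNFAIP3 holds 2 separate matches on the opposite strand, GGGACTTTCC at -67 to -58 and GGGGATTTCC at -55 to -46.

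The consensus is 10 bases long, with a run of G, a purine, a stretch of any bases, a pyrimidine pair and a closing pair of C. RefSeq windows from 250 bases before to 50 bases after a start were searched on both strands, and overlapping matches were each kept. Of the 10 listed genes 8 had a window, and 7 of the 8 held a match in at least 1 window, against 13.3% of all 27305 genes with a window. Counted by window, 9 of 13 held a match, against 11.3% of all windows. Both counts include BIRC3, whose signal was not analysed. Several listed genes are known to be switched on by NF-kB, so these shares are not read as a result. Of the 7 measured members with a window, 6 held a match. NFKB2 matched in 2 of its 3 windows and NFKBIZ in both of its windows, while neither RELA window held these letters. A match is a description of the sequence, and absence of one says nothing beyond the window searched. Over all tested genes with a window, 21.2% of the 1955 genes with a match and 21.8% of the 9753 genes without one passed the test described next.

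Values are MAS5 signals, a linear measure of brightness that the authors deposited with the arrays already brought to one level. They were tested as log2(signal + 16) with limma, by the brightest probe set of each gene, among the 14614 genes whose probe set lay in the upper 60% by mean signal (at least 90.18). Fold changes below are on this scale, which understates changes of dim transcripts. All 9 measured members passed this filter. The words rose and fell are kept for genes whose Benjamini-Hochberg adjusted p over all tested genes was under 0.05.

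With Ecd siRNA, the transcript of the p50 precursor gene NFKB1 fell to 0.769 of its control level, while those of the feedback gene TNFAIP3 and the subunit gene REL rose 1.23-fold and 1.196-fold. The other 6 measured members did not pass the threshold. Thus 2 rose and 1 fell of 9 tested, or 33.3% past the threshold, beside 21.2% of all tested genes (10.1% higher, 11.0% lower). Each of so few members weighs heavily in that share, so it is not read as a difference from the background. In 4 of the 9 members the control and Ecd siRNA arrays did not overlap, or 44.4%, against 36.5% of all tested genes. The median log2 change of the 9 was 0.17, that of all tested genes 0.008, and the members ran from -0.38 to 0.32. In bulk RNA, fewer cells with a transcript and less of it per cell cannot be told apart.

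The targeted transcript and the identity of the cells were checked from the same arrays. ECD signals were 1007.2 to 1076.6 in the control arrays and 542.5 to 599.8 in the Ecd siRNA arrays (two-sided exact permutation p = 0.1, the smallest that 3 against 3 arrays allow). Ratios of 3' to 5' probe sets were 0.974 to 0.980 for GAPDH in control arrays and 0.974 to 1.003 in Ecd siRNA arrays, and 1.07 to 1.11 and 1.07 to 1.16 for ACTB. Of 11 measured mammary epithelial markers 10 were above the filter, among them KRT5, KRT14 and CDH1, and KRT19 was under it. Over the 11 they summed to 103170 to 112390 in the control and 108090 to 119400 in the Ecd siRNA arrays, and CDH1, CDH3 and ITGB4 rose (log2 changes of 0.25, 0.38 and 0.29) while KRT18 fell (-0.52, limma adjusted p = 0.00197). Leukocyte markers summed to 1641 to 1738 in the control and 1456 to 1637 in the Ecd siRNA arrays over 13 genes, with PTPRC, the pan-leukocyte marker, under the filter. Of the 13, 7 were tested and 0 passed, the brightest being CD79A, CSF1R and ITGAM at mean signals of 500, 223 and 198. The groups did not overlap in CSF1R (0.37, limma adjusted p = 0.258). Endothelial markers summed to 1888 to 2147 and 1919 to 2087 over 12 genes, with CDH5, KDR and VWF under the filter. Of the 12, 5 were tested and 0 passed: ENG, PECAM1, TEK, FLT1 and CLDN5, at mean signals of 585, 443, 292, 216 and 117. In FLT1 and CLDN5 the Ecd siRNA arrays lay above the control arrays without overlap (0.44 and 0.60, limma adjusted p = 0.0979 and 0.166). Fibroblast markers summed to 13588 to 13862 and 23981 to 26518 over 19 genes. Of these, 12 were tested and 9 rose. The log2 changes were 1.38 for LOX, 1.03 for FAP, 0.91 for COL6A1, 0.89 for COL5A1 and 0.78 for MMP2. They were 0.76 for FBLN1, 0.70 for S100A4, 0.66 for FBN1 and 0.52 for COL1A1. THY1 (-0.32), COL1A2 (-0.17) and DCN (0.11) did not pass. LUM, PDGFRA, PDGFRB and COL3A1 were among the 7 under the filter. The part of these markers in the results below was not tested.

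**Figure D1:**
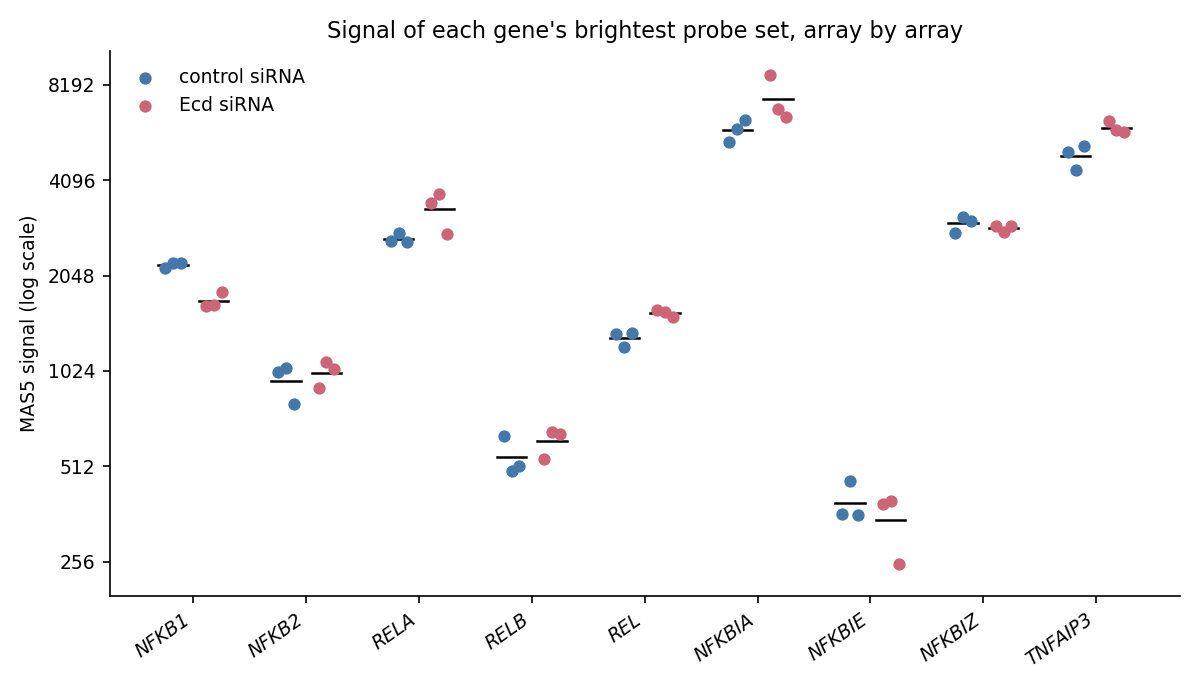
Signal of the brightest probe set of each measured member, on a log axis, with 1 point per array (blue, 3 control siRNA; red, 3 Ecd siRNA) and a bar at the group mean. The groups stand apart in NFKB1, REL, NFKBIA and TNFAIP3 and overlap in the other 5, and heights of different genes are not comparable because probe sets differ in brightness.

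Among the subunits, NFKB1 encodes p105, which is processed to p50, the usual partner of RELA in the canonical pathway. Control arrays read 2166.3, 2237.3 and 2248.2, and Ecd siRNA arrays 1645.2, 1651.5 and 1813.9. All Ecd siRNA arrays were below all control arrays, and the means were 2217 ± 44.5 and 1704 ± 95.6 (SD, n = 3 each). The log2 change was -0.38 (SE 0.08, 95% interval -0.55 to -0.21, limma adjusted p = 0.00552). Of all tested genes 25.7% had a larger absolute change. NFKB1 was read by 1 probe set. In the fit of each probe set on its own it was at an adjusted p of 0.00870, which became 0.0607 with the arrays brought to a common median.

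REL encodes c-Rel, a subunit with a transactivation domain best known from lymphocytes, and was read by 5 probe sets. The brightest, 235242_at, read 1341.2, 1214.8 and 1349.3 in control and 1589.5, 1569.1 and 1518.3 in Ecd siRNA cultures. The groups did not overlap. The log2 change was 0.26 (SE 0.08, 95% interval 0.08 to 0.44, limma adjusted p = 0.0491), so that the gene lay just inside the threshold. Leaving out any 1 array took it outside. The adjusted p was 0.1, 0.158 and 0.0698 without control replicates 1, 2 and 3, and 0.1, 0.115 and 0.0794 without Ecd siRNA replicates 1, 2 and 3. Averaged over its probe sets REL was at 0.16 (adjusted p = 0.285), and over the 17 alternatives the adjusted p ran from 0.0384 to 0.285.

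The REL probe sets did not give one value. A second, 228812_at, read 613.6, 566.4 and 685.8 in control and 833.1, 756.9 and 833.0 in Ecd siRNA cultures, again without overlap. Tested on its own among 27030 probe sets it was at 0.37 (limma adjusted p = 0.0444) while 235242_at was at 0.26 (adjusted p = 0.0645). Probe set 228812_at also lost its call without control replicate 1 or 2 or any of the Ecd siRNA replicates, with adjusted p from 0.0657 to 0.138. In the other 3 the groups overlapped, at log2 changes of 0.20 in 239486_at, 0.03 in 206036_s_at and -0.08 in 206035_at, the dimmest at a mean signal of 138 in the control arrays.

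RELA encodes p65, the main transactivating subunit of the canonical dimer. Its brightest probe set, 201783_s_at, read 2635.0, 2797.8 and 2612.5 in control and 3460.4, 3706.2 and 2781.3 in Ecd siRNA cultures. Ecd siRNA replicate 3 lay among the controls and the other 2 above them. The log2 change of 0.29 (SE 0.10, 95% interval 0.07 to 0.52) missed the threshold (limma adjusted p = 0.0692). With Ecd siRNA replicate 3 left out the change was 0.42 and passed (adjusted p = 0.00712, with 0.00712 to 0.446 over the 17 alternatives). The other RELA probe set, 209878_s_at, read 917.4, 1125.6 and 916.2 in control and 787.1, 1017.3 and 1034.8 in Ecd siRNA cultures. That is a log2 change of -0.06 (95% interval -0.36 to 0.23), so the 2 probe sets of RELA differed in sign and neither passed.

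NFKB2 encodes p100, the precursor of p52 and an inhibitor in its own right, and RELB encodes its partner in the non-canonical pathway. NFKB2 read 1015.2, 1044.2 and 805.2 in control and 903.7, 1090.2 and 1038.0 in Ecd siRNA cultures. The groups overlapped, at a log2 change of 0.09 (95% interval -0.18 to 0.36, limma adjusted p = 0.695). Its second tested probe set, 209636_at, was at 0.03, and the third, at a mean signal of 77.0 in the control arrays, was under the filter. RELB signals were 637.6, 494.4 and 513.5 against 539.1, 658.9 and 648.5. They overlapped as well, at 0.17 (95% interval -0.13 to 0.46, adjusted p = 0.449). For both genes the intervals reach well to either side of 0, so the data do not settle a direction.

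Among the inhibitors, TNFAIP3 encodes A20, a ubiquitin-editing enzyme that shuts off signalling to IKK and is itself induced by NF-kB. Its brightest probe set, 202644_s_at, read 5034.2, 4408.1 and 5240.8 in control and 6298.6, 5909.5 and 5819.0 in Ecd siRNA cultures. All Ecd siRNA arrays were above all control arrays. The log2 change was 0.30 (SE 0.08, 95% interval 0.12 to 0.47), or 1.23-fold (limma adjusted p = 0.0208), and 35.1% of all tested genes had a larger absolute change. The call was lost on omission of control replicate 1 (0.32, adjusted p = 0.0527) or 2 (0.22, adjusted p = 0.0752), or of Ecd siRNA replicate 1 (0.26, adjusted p = 0.0554) or 2 (0.31, adjusted p = 0.0521). It was also lost with a common median (adjusted p = 0.120) and without the intensity trend (0.0971), and over the 17 alternatives the adjusted p ran from 0.0104 to 0.120.

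The second TNFAIP3 probe set gave the larger value. Probe set 202643_s_at read 3171.5, 3195.5 and 3345.8 in control and 4568.5, 3810.9 and 4497.5 in Ecd siRNA cultures. The groups stood apart here too, with means of 3238 ± 94.5 and 4292 ± 418 (SD, n = 3 each). Tested on its own, it was at 0.40 (SE 0.08, 95% interval 0.21 to 0.59, limma adjusted p = 0.00923) and 202644_s_at at 0.30 (adjusted p = 0.0285). The call of 202643_s_at held on leaving out each array in turn, at 0.35 to 0.48 with adjusted p up to 0.0462, and was lost with a common median (0.0676) and without the intensity trend (0.0619). Both are _s_at probe sets, a class that can bind transcripts of more than 1 gene.

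NFKBIA encodes IkB-alpha, the classical inhibitor that is degraded on stimulation and resynthesised under NF-kB control. Its brightest probe set, 201502_s_at, read 5406.1, 5932.3 and 6353.2 in control and 8777.7, 6896.6 and 6500.3 in Ecd siRNA cultures. The groups did not overlap, but the gap between control replicate 3 and Ecd siRNA replicate 3 was small beside the spread of the Ecd siRNA arrays, whose SD was 1217. The log2 change of 0.32 (SE 0.11, 95% interval 0.07 to 0.56) did not pass (limma adjusted p = 0.0658). With Ecd siRNA replicate 3 left out the change was 0.40 and passed (adjusted p = 0.0325, with 0.0325 to 0.799 over the 17 alternatives). Its other probe set, 231699_at, was dim, with 76.1 to 121.7 over the 6 arrays, and gave -0.14 with overlapping groups.

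NFKBIE encodes IkB-epsilon, which is induced later than IkB-alpha, and NFKBIZ encodes IkB-zeta, a nuclear member of the family that acts as a cofactor for selected targets. NFKBIE read 361.7, 458.8 and 358.9 in control and 389.2, 396.6 and 251.1 in Ecd siRNA cultures. The groups overlapped and the value of -0.20 (95% interval -0.62 to 0.22, limma adjusted p = 0.536) rested on Ecd siRNA replicate 3, without which it was at 0.008. NFKBIZ signals in the brightest probe set, 223218_s_at, were 2801.8, 3139.8 and 3052.2 against 2931.7, 2817.4 and 2944.5. They overlapped at -0.05, with a 95% interval of -0.21 to 0.11, the narrowest of the 6 members that did not pass (adjusted p = 0.719), and 87.3% of all tested genes had a larger absolute change.

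The second NFKBIZ probe set varied more within the groups than between them. In 223217_s_at the control signals were 1079.5, 2310.5 and 1588.8, and the Ecd siRNA signals were 2139.9, 1599.2 and 1552.0. Its log2 change was 0.14 with a 95% interval of -0.38 to 0.66. The residual SD on the log2 scale was 0.42 here and 0.065 in 223218_s_at, beside a median of 0.158 over all tested genes.

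**Figure D2:**
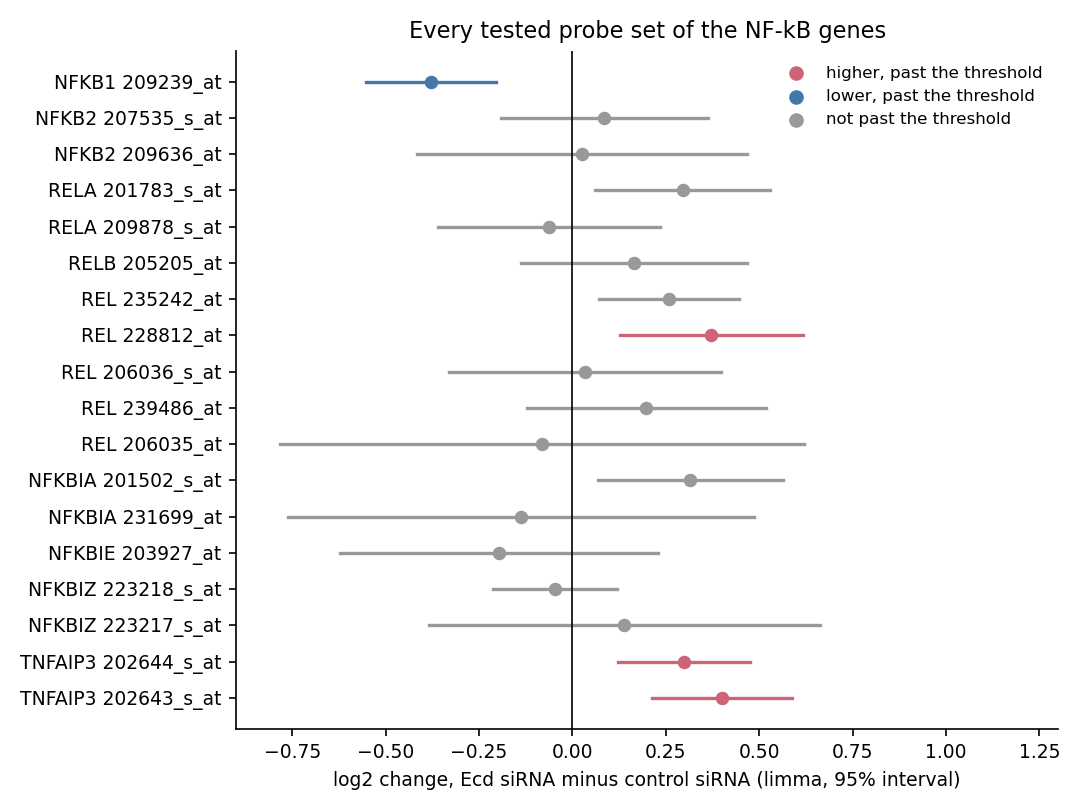
Log2 change with its 95% interval for the 18 tested probe sets of the members, each tested on its own row with limma (red, higher and past the threshold; blue, lower and past it; grey, not past it). Both TNFAIP3 probe sets and 1 of 5 for REL are red and that of NFKB1 is blue, and the probe sets of REL, RELA, NFKBIA and NFKBIZ fall on both sides of 0.

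Over the 18 tested probe sets, 3 rose and 1 fell, or 22.2% past the threshold against 17.0% of all 27030 tested probe sets. The groups did not overlap in 6 of the 18, or 33.3%, against 33.7% of all tested probe sets. So the shares of member probe sets were close to those of the array as a whole. Of the 6 members with more than 1 probe set, TNFAIP3 was the one whose tested probe sets all passed in one direction. The number of rising members depended on single arrays. It was 0 without either control replicate 1 or 2 or without either Ecd siRNA replicate 1 or 2. It was 1 on omission of control replicate 3 and 3 on omission of Ecd siRNA replicate 3, where RELA and NFKBIA joined TNFAIP3. At an unadjusted p under 0.05 it was 3 to 4 in these 6 fits and 4 with all arrays. NFKB1 was the 1 falling member in each of the 6. For rising probe sets the count was 1 when control replicate 1 or 2, or else Ecd siRNA replicate 1 or 2, was left out.

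The pathway around these genes was followed through lists of 120 other genes, of which 100 were tested, 19 rose and 13 fell. Their 32.0% past the threshold stand beside 21.2% of all tested genes, and their median log2 change was 0.03 beside 0.008. Genes past the threshold numbered 20 of 33 in the target list and 4 of 9 among ligands, and 0 of 16 in the list of IKK and upstream kinases. No test of one list against another was made. The lists were chosen with earlier results of these data known, so these shares are not read as a difference from the background.

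Close to the subunits, 0 of 6 tested genes for other IkB proteins and NF-kB cofactors passed in limma, and 2 were at an unadjusted p under 0.05. These were PDLIM2, an E3 ligase that promotes degradation of p65 (0.35, adjusted p = 0.0593), and NFKBIB, the IkB-beta gene (-0.30, adjusted p = 0.0740), and the median was -0.22. PDLIM2 passed with its probe sets averaged (0.53, adjusted p = 0.0340) and among the upper 40% of probe sets (0.0463). Among IKK and upstream kinase genes, including the ubiquitin ligase parts that degrade IkB, 0 of 16 passed and 4 were at an unadjusted p under 0.05, with a median of 0.008. The nearest to the threshold were BTRC, the F-box protein that recognises phosphorylated IkB (0.36, adjusted p = 0.0524), and the casein kinase gene CSNK2A1 (0.25, adjusted p = 0.0553). BTRC passed in 5 of the 17 alternatives, among them the fit without control replicate 3 (0.45, adjusted p = 0.0283), and was at 0.17 (0.604) with its probe sets averaged. CSNK2A1 passed in 4 of the 17, among them the fit without Ecd siRNA replicate 1 (0.33, adjusted p = 0.0141), and was at 0.11 (0.517) in its probe set without _s or _x.

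Receptor and adaptor genes rose in 5 of 24 tested, fell in 1 and did not pass in 18, with a median of 0.04. TLR2, a receptor for bacterial lipoproteins, rose from 2513 ± 266 to 4942 ± 293 (SD, n = 3 each), a log2 change of 0.97 (limma adjusted p = 3.01e-05). MYD88, the adaptor of Toll-like and interleukin 1 receptors, was at 0.37 (adjusted p = 0.0128), the double-stranded RNA receptor gene TLR3 at 0.42 (adjusted p = 0.0175) and TRADD, the adaptor of the TNF receptor, at 0.54 (adjusted p = 0.0252). Left-out arrays ended several of these calls: control replicate 1 for MYD88 (adjusted p = 0.0574), control replicates 1 and 3 and Ecd siRNA replicates 1 and 3 for TLR3 (up to 0.0606), and control replicates 1 and 3 and Ecd siRNA replicates 1 and 2 for TRADD (up to 0.1). The others past the threshold, named after their values were seen, were BIRC2, the cIAP1 gene (0.21, adjusted p = 0.0494), and the 1 that fell, the kinase gene IRAK1 (-0.28, adjusted p = 0.0257). BIRC2 lost its call without any 1 of the 6 arrays (adjusted p up to 0.148). IRAK1 lost it on omission of control replicate 1 or 3, or of Ecd siRNA replicate 1 or 2 (up to 0.0945). With probe sets averaged, IRAK1 was at -0.13 (adjusted p = 0.381) and TRADD at 0.34 (0.173), both not past the threshold. Over the 17 alternatives the highest adjusted p was 0.0722 for MYD88, 0.0606 for TLR3 and 0.280 for BIRC2.

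Of 14 tested genes for other feedback regulators, 2 rose and 0 fell, with 5 at an unadjusted p under 0.05 and a median of 0.05. CYLD, a deubiquitinase that opposes IKK activation, rose from 943 ± 70.2 to 1227 ± 90.2 (log2 change 0.37, limma adjusted p = 0.0202). Its probe set without the _s or _x suffix gave 0.69 (adjusted p = 0.00140) and an average over its probe sets 0.51 (0.0104). TAX1BP1, an adaptor through which A20 acts, was at 0.37 (adjusted p = 0.0406). The CYLD call was lost on omission of control replicate 2 or 3, or of Ecd siRNA replicate 1 or 2 (adjusted p up to 0.0728), and in 2 further alternatives, a common median (0.0707) and no trend (0.0537). That of TAX1BP1 was lost on omission of control replicate 1 or 2, or of Ecd siRNA replicate 2 or 3 (up to 0.127). The TAX1BP1 call was also lost in a probe set without the _s or _x suffix (0.21, adjusted p = 0.262). A common median (0.121), no trend (0.134) and no filter (0.0693) ended it too, and it held in 9 of the 17 alternatives.

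Ligand genes split, with 1 rise and 3 falls among 9 tested and a median of -0.06. The interleukin 1 genes fell, IL1B from 6879 ± 523 to 3288 ± 189 (SD, n = 3 per group, log2 change -1.06, limma adjusted p = 7.22e-06) and IL1A from 6092 ± 141 to 3700 ± 150 (-0.72, adjusted p = 2.8e-05). IL33, the third call, read 148 ± 21.6 in control and 61.0 ± 9.27 in Ecd siRNA arrays. The latter is under the filter level, so IL33 was tested only through its control arrays and the size of its fall is not settled: the log2 change was -1.09 (adjusted p = 0.0222), -1.26 with a pseudocount of 1 and -0.76 with 64. The call was lost on omission of control replicate 1 or 2, or of Ecd siRNA replicate 2 (adjusted p up to 0.0987). TNFSF10, the TRAIL gene, rose from 3735 ± 593 to 5864 ± 272 (0.66, adjusted p = 0.00133). The TNF gene itself was dim, with mean signals of 101 and 102. For IL1A a probe set without the _s suffix was at -0.23 and did not pass (adjusted p = 0.545).

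Target genes moved in both directions. Among 33 tested there were 11 rises, 9 falls and 13 genes not past the threshold, and the median change was 0.07. The share past the threshold was 60.6%, beside 21.2% of all tested genes, in a list chosen with earlier results known. One of the falls, CSF3, named after its values were seen, encodes the growth factor G-CSF. It read 943.1, 988.0 and 1000.5 in control and 14.4, 70.5 and 130.2 in Ecd siRNA arrays. The Ecd siRNA mean of 71.7 is under the filter level, so CSF3 was tested only through its control arrays and its fitted change of -3.77 is not read as a fold. CXCL6 encodes a neutrophil-attracting chemokine, and its mean signal went up from 504 ± 34.7 to 1670 ± 95.4 (log2 change 1.70, limma adjusted p = 1.38e-06). The complement gene C3 rose by 0.99 and PTGS2, the cyclooxygenase 2 gene, by 1.22. BCL2A1, an antiapoptotic BCL2 family gene, fell from 698 ± 65.5 to 202 ± 13.8 (-1.71, adjusted p = 9.85e-06). These 4 passed in each of the 17 alternatives. Of the 30 target genes with a RefSeq window 16 held a kappa B match, or 53.3%, against 13.3% of all genes with a window. The fibroblast marker sums given above were higher in the Ecd siRNA arrays too, and their part in the values of this list was not tested.

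**Figure D3:**
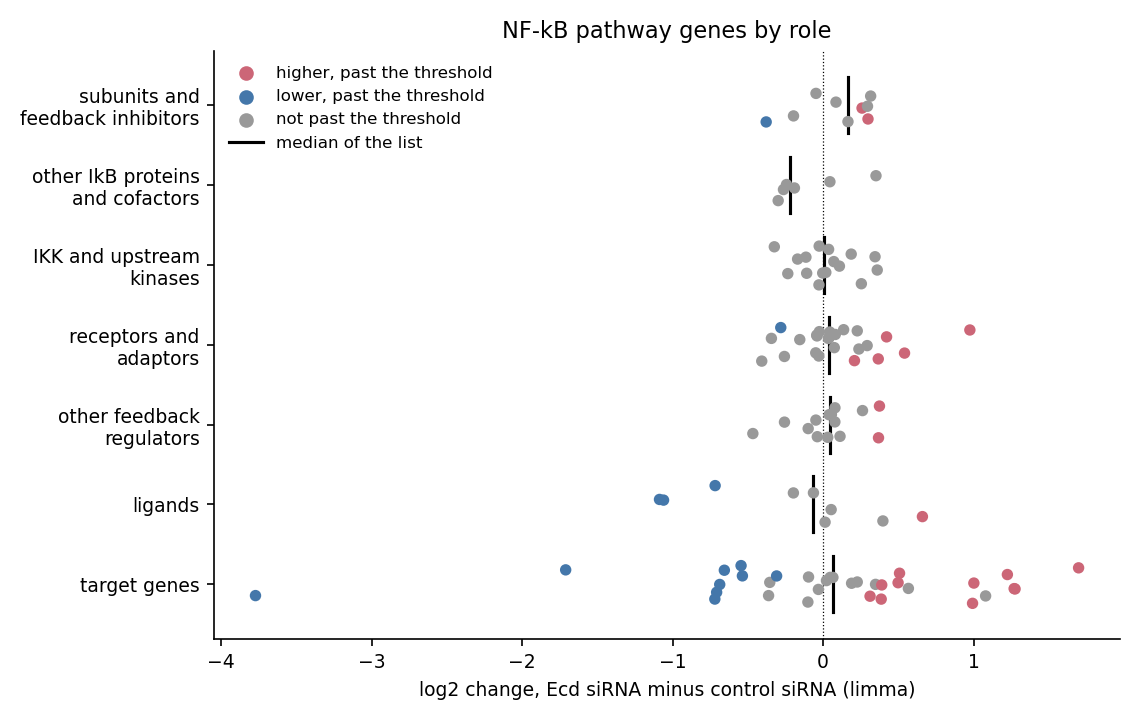
Log2 change of each tested gene by its role in the pathway, 1 point per gene, coloured by direction where past the limma threshold (red, higher; blue, lower; grey, not past it), with a black bar at each list's median. The members lie between -0.38 and 0.32, and the target genes spread up to 1.70 and on both sides of a median of 0.07. The lowest point, at -3.77, is CSF3, whose Ecd siRNA mean is under the filter level.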

How the data were processed

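Probe set intensities of 6 arrays (1 per culture) were taken from the table the authors deposited. They are MAS5 signals, per the submitters' processing notes. The sources used here give no MAS5 version, scaling target or detection calls. The mean between percentiles 2 and 98 was 499.57 to 499.82 per array, array medians were 128.7 to 147.6, and no array was rescaled. A change shared by all transcripts would therefore not be seen.

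Of 54675 probe sets, 41091 had 1 gene symbol in the platform annotation and were not Affymetrix controls. A gene was read by its brightest probe set, judged by the mean of all 6 arrays. Values were converted to log2(signal + 16), filtered to the upper 60% by mean signal and tested with limma 3.58.1 (lmFit, eBayes with trend, no covariate) in R 4.3.3, with Benjamini-Hochberg adjustment and a threshold of 0.05. A second fit took each of the 27030 single-symbol probe sets above the filter on its own. The steps were tested on simulated data. Of 100 simulated log2 changes of 1.0 the gene fit recovered 60, and of 100 of 0.5 it recovered 19, with 1 false call. Only these genes were changed among 14614, a far smaller share than the 21.2% that passed in the data. The adjustment is stricter where fewer genes change, so these rates are not the power of the fit to the data. Changes of the size seen in the members can be missed, at a rate that the simulation does not give. Promoter windows were searched in Python 3.11.15.

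The members and lists were chosen with earlier results of these data known, and the lists were written from textbook knowledge. Named genes were all members and, from each other pathway list, up to 4 past the threshold with the smallest p, or the 2 with the smallest p where fewer than 2 passed. Genes of most similar pattern were to be named for members that changed by over 0.5 on the log2 scale, and 0 did. Replicates are biological per the labels, so the spread within groups is that among cultures. The limma fit draws each gene's variance towards that of genes of like signal. The p-values thus rest on both, and not on the spread among the 6 cultures alone. As alternatives, each array was left out in turn, the replicate number was made a block, array weights were added, the trend was dropped, pseudocounts of 1 and 64 were used, the filter was removed or set to the upper 40%, arrays were quantile normalized or brought to a common median, and genes were read by the mean of their probe sets or by those without _s or _x.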

Additional observations from a re-analysis of the deposited data

How the results depend on the processing

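The fall of NFKB1 passed the threshold in the gene fit under all 17 alternatives (-0.42 to -0.35, limma adjusted p 0.00392 to 0.0496). The calls of the other 2 members, TNFAIP3 and REL, changed with the setting. Member genes that rose numbered 0 with a common median (3 at an unadjusted p under 0.05), 0 without the trend (2 unadjusted), 1 with the mean of probe sets, 1 with probe sets without _s or _x, and 0 to 3 on leaving out single arrays. Rising member probe sets numbered 0 with a common median (5 unadjusted) and 0 without the trend (4 unadjusted), 1 without the filter, and 1 to 4 on leaving out arrays, and falling ones 0 with a common median (1 unadjusted). Rising pathway genes numbered 12 with a common median and 12 without the trend, against 19. The cause was not tested. The median over all genes stayed between -0.013 and 0.020.

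Values that changed sign were of members or member probe sets that had not passed. As the mean of probe sets NFKB2 was at -0.0033 and NFKBIZ at 0.046, and NFKBIA was at -0.14 in its probe set without _s. Leaving out single arrays gave ranges of -0.031 to 0.16 for NFKB2 (its second probe set -0.093 to 0.19), -0.31 to 0.008 for NFKBIE, -0.13 to 0.063 for RELA probe set 209878_s_at, -0.096 to 0.20 for REL probe set 206036_s_at, -0.36 to 0.22 for 206035_at and -0.13 to 0.41 for NFKBIZ probe set 223217_s_at.

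The groups share replicate numbers. Deviations of same-numbered arrays correlated at -0.0026, 0.084 and 0.16. The numbers were taken to pair the arrays only if all 3 correlations exceeded 0.1, so the arrays were treated as unpaired, although 4 of 6 correlated best with their own number. With the replicate number as a block, 3276 genes passed against 3092. RELA then passed (adjusted p = 0.0332) and REL did not (0.0630). Member counts were 2 higher and 1 lower under the block. No detection calls were used, so dim probe sets near the filter are limited by background.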
